A study of Mus musculus with 99 samples.

Results

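Respiratory complex I was followed through the RNA of its subunits from both genomes. The members were every gene in the deposited table whose symbol begins with Ndufa, Ndufb, Ndufc, Ndufs, Ndufv or Ndufab and a number, which gave 38 nuclear genes, together with the 7 mitochondrial ND genes (ND1 to ND6 and ND4L). Assembly factors and pseudogenes were left out, so that 45 of 35870 genes formed the set. Polyadenylated RNA had been sequenced from gastrocnemius muscle, quadriceps muscle and whole spinal cord of wild type male C57BL/6 mice, perfused with saline before dissection. Each tissue was represented by sedentary mice of 10 months, sedentary mice of 18 months and exercised mice of 18 months, giving 10, 10 and 13 libraries in gastrocnemius, 10, 9 and 12 in quadriceps and 10, 10 and 13 in spinal cord. The kind of exercise is not described, and no label ties a library to an animal, so the p-values measure the spread between these libraries.

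Complex I (NADH:ubiquinone oxidoreductase) is the entry point of electrons from NADH into the respiratory chain and pumps protons across the inner mitochondrial membrane. Its peripheral arm holds the flavin and iron-sulfur clusters and is made of nuclear-encoded subunits, whereas the proton-pumping core of its membrane arm is the product of the ND genes, so that every complex needs both genomes. The ND mRNAs are cut from long transcripts of the mitochondrial DNA, and the Nduf mRNAs come from separate genes on many chromosomes. Skeletal muscle is rich in mitochondria, and its oxidative fibres hold more of them than its glycolytic fibres.

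The layout of the mitochondrial genes bears on what a read count for an ND gene means. ND4L and ND4 lie in the same direction on the mitochondrial chromosome and share 7 bases, the last of ND4L being the first of ND4, and both are carried by a single mRNA. ND5 and ND6 lie on opposite strands and share 14 bases at their ends. The sequences below are from the GRCm38 annotation, in the direction of each gene, with the shared bases in capitals.
End of ND4L (chrM:10155-10173, plus strand): caacctactacaATGCTAA
Start of ND4 (chrM:10167-10185, plus strand): ATGCTAAaaattattcttc
End of ND5 (chrM:13540-13565, plus strand): tcttatactcaaTTAATCTCGAGTAA
End of ND6 (chrM:13552-13577, minus strand): ttattatcgagaTTACTCGAGATTAA
The library kit does not mark strand, so reads of ND6 could not be told apart from reads of antisense RNA over the same bases. Nuclear copies of mitochondrial sequence also matter for the counts. Of all 50-base windows, 98.0% in ND3, 98.8% in ND4L and 62.2% in ND4 occur without a mismatch in a transcript annotated on a nuclear chromosome, against 8.19% in ND2, 7.61% in ND5 and 0 in ND1 and ND6. Counts for ND3, ND4L and ND4 are therefore uncertain. Exon bases are also shared between nuclear members and other genes, the most in Ndufb6 (257 of 659 bases, with Smim27), Ndufa13 (375 of 1251, with Tssk6), Ndufb9 (201 of 1031, with Gm49356), Ndufb5 (616 of 4995, with Mrpl47), Ndufs1 (489 of 8086, with Ino80dos) and Ndufab1 (269 of 6883, with Gm44986), and fewer in others, among them Ndufb11 (117 of 908, with Rbm10) and Ndufa2 (66 of 572, with Tmco6). The counting of reads in such bases is not described, so the counts of these genes are uncertain to that extent.

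The 97 libraries analysed held about 29063000 to 62769300 counted reads. Transcripts of the mitochondrial genome took 7.15% to 19.7% of the counts in muscle and 1.58% to 4.93% in cord. The labelled tissues carried their own markers. The actin gene Acta1 had median levels of 43475, 43418 and 101 TPM (reads per gene length, scaled to a fixed total) in gastrocnemius, quadriceps and cord, and the synaptic gene Snap25 had 0.989, 0.663 and 3023. The 6 muscle-defining genes summed to at most 382 CPM (reads relative to the library's total, scaled within each tissue by edgeR's trimmed mean of M values, TMM) in a cord library, against at least 49175 in a muscle library. Gastrocnemius libraries 2.2 and 3.1, quadriceps library 3.1 and cord libraries 5.2 and 6.1 stand apart from the rest of their groups, a list taken from earlier results of these data. For the members, tested comparisons that rest on these libraries are given with and without them. Mean levels are given with all libraries only.

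Within the nuclear subunits, levels were compared per length, as TPM, in the sedentary 10-month groups (mean ± SD, n = 10). Ndufa4 was the most abundant in each tissue, at 1717 ± 265 in gastrocnemius, 1707 ± 211 in quadriceps and 1336 ± 128 in cord. Ndufa4 was first purified with complex I and is now assigned to cytochrome c oxidase. Its paralog Ndufa4l2, a hypoxia-inducible gene, was the least abundant at 10.8 ± 2.49, 11.6 ± 2.39 and 10.06 ± 1.46. The range between these paralogs was 160-fold in gastrocnemius, 147-fold in quadriceps and 133-fold in cord. Without Ndufa4l2 it shrank to 20.1-fold, 18.5-fold and 16.3-fold. Ndufb9, an accessory subunit of the membrane arm, came second at 1215 ± 211, 1316 ± 155 and 585 ± 30.2 TPM. In the order of the 38 levels, 32 of 37 neighbouring pairs in gastrocnemius and 27 of 37 in quadriceps and in cord were closer together than the larger of their SDs.

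The nuclear core subunits bind the flavin or the iron-sulfur clusters or line the quinone site, and the values of those named here are given in the order gastrocnemius, quadriceps, cord. Ndufv1, which binds NADH and the flavin, stood at 456 ± 43.7, 450 ± 29.1 and 341 ± 9.23 TPM. Ndufv2 stood at 371 ± 42.1, 402 ± 43.9 and 275 ± 12.5, and Ndufs1, which carries iron-sulfur clusters of the chain behind the flavin, at 241 ± 31, 234 ± 28.8 and 155 ± 5.78. Ndufs3 gave 485 ± 66, 488 ± 27.6 and 253 ± 13.7, Ndufs7 gave 444 ± 91.4, 451 ± 30.1 and 234 ± 19.4, and Ndufs8 gave 202 ± 28, 233 ± 26.2 and 197 ± 12.1. Core subunits that sit side by side in the protein thus differed in mRNA, and the gap between Ndufs3 and Ndufs8 was wider in muscle than in cord.

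The ND genes stood far above the nuclear genes, with ND3 and ND4L as exceptions. In gastrocnemius, quadriceps and cord ND1 averaged 37647 ± 3720, 45124 ± 6811 and 18232 ± 914 TPM. ND2 followed at 29985 ± 4683, 36902 ± 4369 and 13842 ± 993. ND4, ND6 and ND5 lay between 13070 and 18605 in the muscles and between 6516 and 8115 in cord. ND3 averaged 186 ± 80.2, 222 ± 83.1 and 266 ± 31.9. ND4L averaged only 28.5 ± 9.58, 27.8 ± 4.24 and 14.4 ± 2.92, which is 536-fold, 670-fold and 564-fold below ND4 although both lie on the same mRNA. In reads, a cord library of the 10-month group held 34 to 71 counts for ND4L and 121548 to 176771 for ND4. The part of the nuclear copies in these low counts was not tested.

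**Figure D1:**
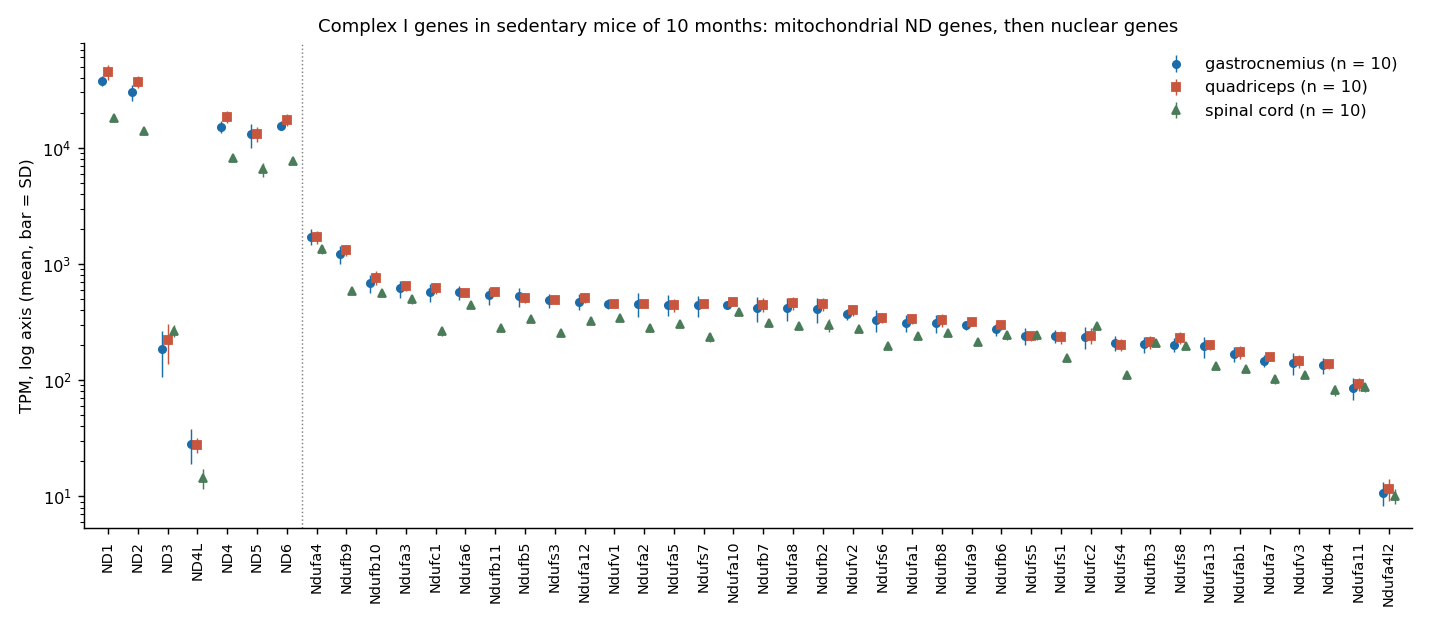
Level of each complex I gene in TPM (log axis) in the sedentary 10-month groups of gastrocnemius, quadriceps and spinal cord, with the mean and SD of 10 libraries. ND1 is highest at 37647, 45124 and 18232 TPM, while ND3 and ND4L fall among or below the nuclear genes.

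The promoters of the nuclear members were searched for motifs of regulators known from mitochondrial genes. RefSeq promoters (250 bases before to 50 after the start site, GRCm38.p6) were matched for 33 of the 38 genes. The core of the motif of YY1, a zinc-finger regulator of mitochondrial genes, written AAGATGGCG and searched on both strands, occurred in 5 of 33 members (15.2%) and in 1.64% of 27025 genes. The 5 stretches are shown because the core lies in each just downstream of the start site, between 22 and 35 bases from it, with the core in capitals.
Ndufa9 (chr6:126849097-126849126, minus strand): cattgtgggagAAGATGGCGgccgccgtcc
Ndufc1 (chr3:51408915-51408944, minus strand): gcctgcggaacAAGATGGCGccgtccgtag
Ndufs4 (chr13:114388045-114388074, minus strand): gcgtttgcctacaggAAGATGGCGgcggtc
Ndufs6 (chr13:73328433-73328462, minus strand): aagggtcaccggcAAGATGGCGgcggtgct
Ndufs7 (chr10:80249462-80249491, plus strand): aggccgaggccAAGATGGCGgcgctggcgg
The ETS core CCGGAAG was found in 4 members (12.1%, against 9.93% of all genes), the SP1 box GGGCGG in 15 (45.5% against 38.2%) and the CCAAT box in 10 (30.3% against 41.1%). The NRF1 core GCGCATGCG was found in Ndufa8 and Ndufa11 (6.06% against 1.95%), and the ERR core TCAAGGTCA in no member, against 0.466% of all genes. Any overlap of these motifs with each other was not counted, and a match is a description of the letters only.

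The balance between the genomes was taken as the summed TPM of the 7 ND genes divided by the summed TPM of the 38 nuclear genes in each library. In gastrocnemius the ratio had a lowest, median and highest value of 3.33, 7.50 and 8.38 at 10 months, of 5.72, 7.22 and 8.13 at 18 months and of 4.92, 7.15 and 8.89 after exercise. In quadriceps the values were 6.74, 8.002 and 11.07, then 6.51, 7.42 and 12.27, then 5.88, 7.71 and 11.03. In cord they were 3.97, 5.04 and 5.70, then 0.873, 4.33 and 5.70, then 3.39, 4.95 and 5.48. The groups of each tissue overlapped in every comparison, and all muscle libraries but gastrocnemius 2.2 and Gas_10.2 lay above the highest cord library. The ratio differed less between the groups of a muscle than between its libraries: the difference of mean log2 ratios was 0.01 for ageing and 0.01 for exercise in gastrocnemius, and -0.0044 and -0.0022 in quadriceps, while the SDs within groups ran from 0.16 to 0.39. In cord the mean log2 ratio was 2.31 ± 0.14 at 10 months (n = 10), 1.91 ± 0.78 at 18 months (n = 10) and 2.25 ± 0.20 after exercise (n = 13). The difference for ageing in cord, -0.40, became -0.16 without library 5.2 and -0.11 without libraries 5.2 and 6.1, and the difference for exercise, 0.34, became 0.11 and 0.05. No p-value is given for a score over chosen genes.

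**Figure D2:**
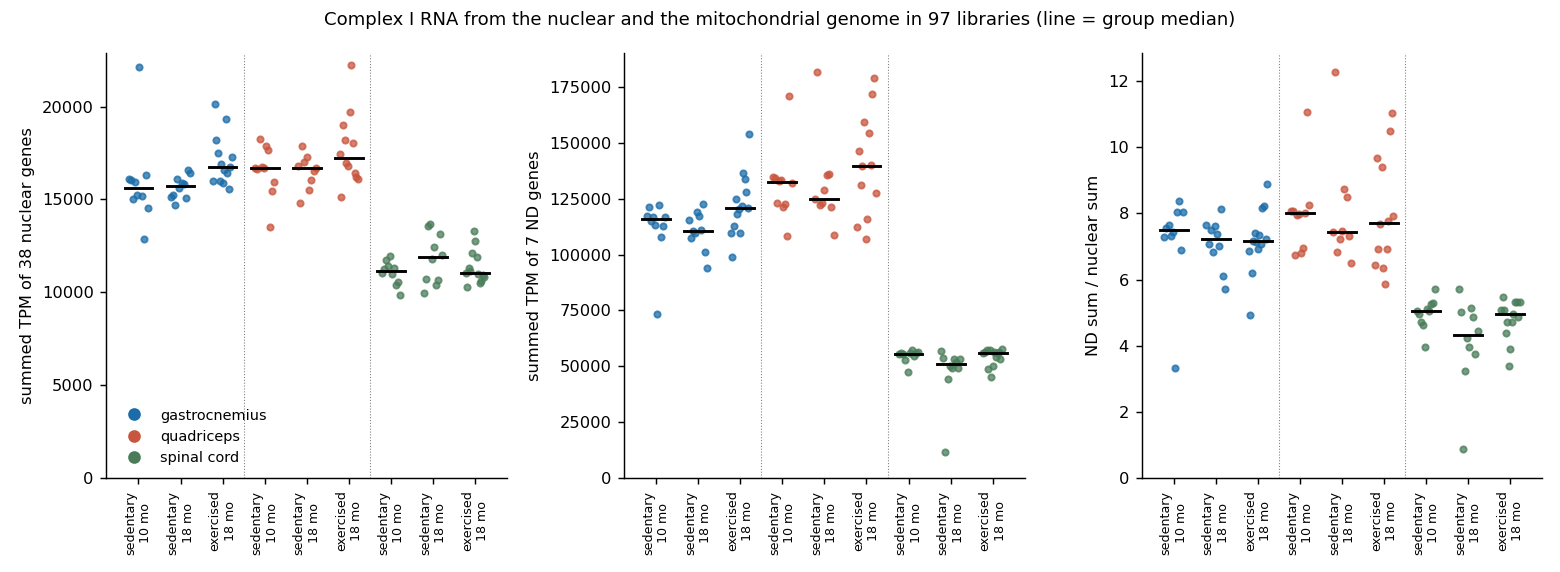
Summed TPM of the nuclear genes, summed TPM of the ND genes and the ratio of the ND to the nuclear sum in each library of the 9 groups (points), with the group median as a line. Median ratios are 7.15 to 8.002 in the muscles and 4.33 to 5.04 in cord, and cord library 5.2 lies lowest at 0.873.

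Both parts of the ratio varied in single libraries. Gastrocnemius library 2.2 had the highest nuclear sum of its group, 22118 TPM against a median of 15606, and the lowest ND sum, 73585 against 115910. The exercised library titled Gas_10.2 showed the same arrangement, with 20129 TPM for the nuclear genes and 99084 for the ND genes. In quadriceps the extremes were on the side of the ND genes, with 181687 TPM in sedentary 18-month library 5.2 and 178926 in exercised library 8.4. The ND genes were also the more variable members there. The SD of log2 CPM within groups of quadriceps ran from 0.35 (ND6) to 0.60 (ND3), against a median of 0.18 for the nuclear genes. In gastrocnemius the median SDs were 0.16 for ND and 0.23 for nuclear genes, and in cord 0.40 and 0.19.

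Against the 6 other mitochondrial mRNAs (CYTB, COX1 to COX3, ATP6 and ATP8), the ND genes had lower medians in exercised muscle. The log2 ratio of summed ND TPM to that of the other mRNAs was 0.32 (median) at 10 months, 0.30 at 18 months and 0.25 after exercise in gastrocnemius, and 0.32, 0.32 and 0.18 in quadriceps. In quadriceps the exercised libraries spanned 0.06 to 0.27 and the sedentary 18-month libraries 0.23 to 0.41, so that the groups overlapped. In cord the medians were 0.03, 0.03 and 0.04. The sum of the other mRNAs was nearly all COX1 and CYTB. In 10-month gastrocnemius these averaged 53262 and 36020 TPM, against 125 for COX2, 121 for COX3, 99.4 for ATP6 and 16 for ATP8. COX1, COX2, COX3 and ATP6 have exact nuclear copies over 51.1% to 100% of their windows, and the part of these copies was not tested.

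Between tissues the difference was large in both genomes. In a fit over all libraries, with edgeR's quasi-likelihood test and Benjamini-Hochberg adjustment over all genes, 45 of 45 members were lower in cord than in the mean of both muscles at 10 months (92.1% of all genes tested passed in either direction, 38.2% as lower). The median log2 difference was -2.03 for the nuclear genes and -2.58 for the ND genes, against 0.40 for all genes tested. Ndufs1 differed by -2.14 ± 0.0585 (adjusted p = 6.54e-57), Ndufs3 by -2.47 ± 0.0757 (adjusted p = 9.37e-53) and Ndufc1, a small membrane-arm subunit, by -2.70 ± 0.0887 (adjusted p = 3.6e-50). ND4 differed by -2.58 ± 0.112 (adjusted p = 5.41e-40), ND1 by -2.71 ± 0.13, ND2 by -2.79 ± 0.152, ND6 by -2.62 ± 0.162, ND5 by -2.53 ± 0.15, ND4L by -2.48 ± 0.18 and ND3 by -1.12 ± 0.218 (adjusted p = 1.71e-06). The scale matters here. Contractile transcripts such as Acta1 are very abundant in the muscle libraries, and their part in this was not tested. As TPM, which shares out a fixed total, the cord-to-muscle ratio had a median of 0.706 over the nuclear genes and 0.479 over the ND genes, and Ndufs5 (1.02), Ndufc2 (1.23) and ND3 (1.31) were on the other side of equality. In bulk tissue, fewer cells of a type and less RNA per cell cannot be told apart.

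The lower level in cord was not even across the nuclear subunits. By TPM ratio Ndufc1 (0.443), Ndufb9 (0.462), Ndufb11 (0.510) and Ndufs3 (0.519) lay furthest below the muscles, near the ND genes. Ndufb3 (0.997), Ndufa11 (0.977) and Ndufs8 (0.907) were close to equality. Ndufc1 ranked 6th among 38 in both muscles and 19th in cord, and Ndufc2, its neighbour in the membrane arm, ranked 28th, 26th and 15th.

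Between the muscles, 3 ND genes and 1 nuclear gene passed in a fit that takes all libraries as independent. An alternative fit with the title number as a block called more members and more of all genes, as given at the end. At 10 months 4 of 45 members were lower in gastrocnemius than in quadriceps and none was higher (10.9% of genes tested passed in either direction, 4.17% as lower), while 38 of 38 nuclear and 7 of 7 ND genes were fitted lower, with medians of -0.18 and -0.40 against 0.00 over all genes tested. ND2, with 17293, 31149 and 32920 TPM (lowest, median, highest) in gastrocnemius and 30221, 36712 and 46322 in quadriceps, differed by -0.45 ± 0.123 (adjusted p = 0.00931). ND4, with 10053, 15632 and 16896 against 16200, 18580 and 23952, differed by -0.44 ± 0.121 (adjusted p = 0.0113). ND1, with 29410, 38895 and 41257 against 32886, 44723 and 61079, differed by -0.41 ± 0.124 (adjusted p = 0.0213). The ranges of all 3 genes overlapped, and their lowest TPM values came from gastrocnemius library 2.2 and quadriceps library 3.1. As CPM scaled by TMM within gastrocnemius, the lowest ND1 value of the 10-month group was that of library 3.1 (12515). Ndufs8, a core subunit with 2 iron-sulfur clusters, was the only nuclear gene past the threshold, with 155, 199 and 269 TPM against 163, 242 and 249 and a difference of -0.33 ± 0.101 (adjusted p = 0.0257). ND6 was fitted at -0.31 (adjusted p = 0.073), ND3 at -0.40, ND5 at -0.17 and ND4L at -0.11, and Ndufa10 at -0.20 (adjusted p = 0.0514) and Ndufa7 at -0.22 (adjusted p = 0.0595).

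This comparison depended on single libraries. Without gastrocnemius libraries 2.2 and 3.1 and quadriceps library 3.1, 38 members passed as lower (34 nuclear and 4 ND), where 25.1% of all genes passed, and the nuclear median moved from -0.18 to -0.30 while the ND median went from -0.40 to -0.42. Ndufc1 then differed by -0.36 ± 0.0659 (adjusted p = 4.05e-05), Ndufa1 by -0.35 ± 0.066 and Ndufs8 by -0.44 ± 0.0841. Library 2.2 has the highest nuclear sum of 10-month gastrocnemius, so leaving it out by itself makes the nuclear differences more negative. Quadriceps library 3.1, lowest of its group in Ndufs1 and Ndufv1, acts likewise for these genes. Gastrocnemius library 3.1, lowest of its group in Ndufs1, acts the other way for that gene. In a separate fit, with all other libraries kept, quadriceps libraries 3.2 (10 months) and 5.2 (18 months) were left out. Each is the highest of its group in the ND sum, and this alternative was chosen after seeing the data. Leaving out the highest 10-month quadriceps library by itself shrinks the ND differences between the muscles. Then 3 members passed as lower (9.04% of all genes passed in either direction), ND2 (-0.36 ± 0.104, adjusted p = 0.019), ND4 (-0.34 ± 0.0987, adjusted p = 0.0198) and ND1 (-0.30 ± 0.101, adjusted p = 0.0493). Ndufs8 no longer passed (-0.28, adjusted p = 0.0604), and the ND median went from -0.40 to -0.24. Library 2.2 held the highest Ndufs8 value of gastrocnemius and quadriceps library 3.1 the lowest of quadriceps. Fibre markers differed between the muscles too. Of 10 slow and oxidative fibre markers Myl2 (0.48, adjusted p = 0.0162) and Myh7 (0.53, adjusted p = 0.0221) were higher in gastrocnemius, and of 10 fast markers Myh1 (-0.69, adjusted p = 0.00154) and Atp2a1 (-0.20) were lower. Of 6 microglia and macrophage markers Cx3cr1 (1.39) and Tyrobp (0.66) were higher in gastrocnemius. Their part in the complex I difference was not tested.

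**Figure D3:**
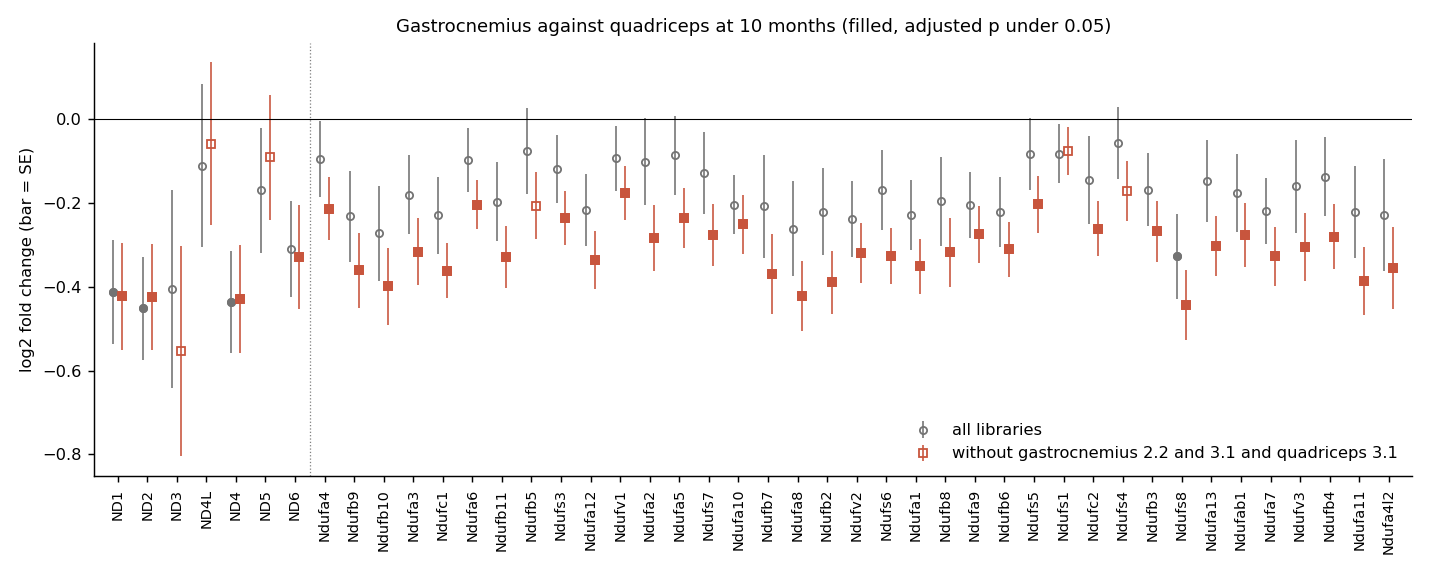
Log2 difference of each member between gastrocnemius and quadriceps at 10 months (bars are SE), with all libraries (circles) and without the 3 libraries that stand apart (squares), filled where the adjusted p is under 0.05. Counts past the threshold are 4 and 38, and the genes shown lie below 0 in both.

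Ageing from 10 to 18 months in sedentary mice left the muscles without a called member. In gastrocnemius 0 of 45 passed by edgeR (0.153% of all genes passed), 0 at an unadjusted p under 0.05 (9.84% of all genes) and 0 by DESeq2. Of the nuclear genes 37 of 38 were fitted lower, with a median of -0.06, and the ND median was -0.02, as was the median of all genes tested. The smallest p-values belonged to Ndufs1 (0.08, adjusted p = 0.722), Ndufa8 (-0.14, adjusted p = 0.727) and Ndufs4 (-0.11, adjusted p = 0.73). Without libraries 2.2 and 3.1, 24 of 38 were fitted higher with a median of 0.01, so the direction over the nuclear genes rested on those libraries. In quadriceps 0 of 45 passed (0.352% of all genes), with 0 at an unadjusted p under 0.05 (12.2%) and 0 by DESeq2, and the medians were -0.04 (nuclear) and -0.03 (ND). Ndufs4, an accessory subunit of the peripheral arm, was at -0.11 (adjusted p = 0.562), Ndufs6 at -0.07 (adjusted p = 0.723) and Ndufa8 at -0.10 (adjusted p = 0.738). The ND genes were fitted between -0.07 (ND4L) and 0.01 (ND5) in gastrocnemius and between -0.21 (ND3) and 0.09 (ND4L) in quadriceps.

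Exercised gastrocnemius, set against sedentary gastrocnemius of the same age, showed small positive differences in every member without a call. In this contrast 0 of 45 passed by edgeR (0.106% of all genes), while 9 nuclear and 4 ND genes had an unadjusted p under 0.05 (13.6% of all genes) and DESeq2 called 1, ND6 (1.42%). The medians were 0.15 for the nuclear and 0.15 for the ND genes, against 0.00 for all genes tested. ND6 stood at 3312, 3531 and 3777 CPM (lowest, median, highest) in sedentary and 3447, 3886 and 5447 in exercised libraries, a difference of 0.22 ± 0.0612 (adjusted p = 0.0879 by edgeR and 0.0203 by DESeq2). The groups overlapped, and library 9.1 was the highest. Ndufa10 was fitted at 0.19 ± 0.0633 (adjusted p = 0.163), Ndufa4l2 at 0.34 ± 0.116 (adjusted p = 0.173) and Ndufa9 at 0.19 ± 0.0723 (adjusted p = 0.231). ND4 was fitted at 0.15, ND1 at 0.14, ND2 at 0.13, ND5 at 0.18, ND3 at 0.41 and ND4L at 0.01. Without libraries 2.2 and 3.1, both of the 10-month group, which is in the fit but not in this contrast, 8 members passed as higher, where 4.52% of all genes passed. They were Ndufa4l2 (0.35 ± 0.065, adjusted p = 0.00556), the accessory subunits Ndufa9, Ndufb5, Ndufa10, Ndufb3 and Ndufab1 (0.20 to 0.21), the core subunit Ndufv1 (0.19 ± 0.0544, adjusted p = 0.0413) and ND6 (0.23 ± 0.0595, adjusted p = 0.0274).

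For Ndufa4l2 the shift was visible in most libraries. Its CPM was 3.81, 4.61 and 5.80 in sedentary and 4.89, 6.11 and 7.06 in exercised gastrocnemius, so that the exercised median lay above the highest sedentary library. At 10 months it was 2.35, 4.94 and 9.205, with both ends set by libraries 3.1 and 2.2. In the same contrast Myh1, the IIx myosin, rose by 1.06 ± 0.161 (adjusted p = 0.00202) and was the 1 of 10 fast markers that passed, and Mb, the oxygen carrier myoglobin, rose by 0.84 ± 0.162 (adjusted p = 0.026), while 0 of 10 slow and oxidative markers passed. The slow and oxidative markers together summed to 2842 to 4707 CPM in sedentary and 3455 to 7118 in exercised libraries, and 5 endothelial markers to 177 to 232 and 184 to 337. Their part in the complex I values was not tested.

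Exercised gastrocnemius at 18 months against sedentary at 10 months, which shares its groups with the contrasts above, had 2 called members of 45, a smaller share than the 6.73% of all genes that passed. Ndufs1 stood at 214, 330 and 362 CPM at 10 months and at 319, 360 and 432 in exercised mice, and rose by 0.21 ± 0.0624 (adjusted p = 0.0408). ND6 stood at 3242, 3535 and 3813 and at 3447, 3886 and 5447, and rose by 0.21 ± 0.0612 (adjusted p = 0.035). Both pairs of groups overlapped, and the lowest Ndufs1 value came from library 3.1. Ndufb3 was fitted at 0.20 (adjusted p = 0.154) and Ndufa9 at 0.16 (adjusted p = 0.163). Without library 2.2 alone 21 members passed, where 1455 genes passed in all, against 1011 with all libraries. Without libraries 2.2 and 3.1 10 nuclear genes passed (6.61% of all genes), led by Ndufb3 (0.27 ± 0.0655, adjusted p = 0.0119). Ndufs1 remained among them at 0.16 (adjusted p = 0.0452), and ND6 then had an adjusted p of 0.0519. Library 2.2 has the highest nuclear sum of the 10-month group, so leaving it out by itself raises the nuclear differences. The exercised library titled Gas_10.2, with the same arrangement, was kept in both fits. Leaving out 1 library at a time ended the Ndufs1 call in 9 of 33 fits and the ND6 call in 5. The remaining ND genes were fitted from -0.06 (ND4L) to 0.35 (ND3), with ND1 and ND2 at 0.11, ND4 at 0.14 and ND5 at 0.19.

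Quadriceps gave the same kind of picture for exercise at 18 months. By edgeR 0 of 45 members passed (0.757% of all genes), 16 nuclear and 1 ND gene had an unadjusted p under 0.05 (11.4% of all genes), and DESeq2 called 0. All 45 were fitted higher, with medians of 0.16 (nuclear) and 0.20 (ND) against 0.00 over all genes tested. Ndufb5 stood at 202, 226 and 298 CPM in sedentary and 216, 300 and 353 in exercised libraries, a difference of 0.32 ± 0.0983 (adjusted p = 0.132), with the exercised median just above the highest sedentary value. An exon of Ndufb5 shares 616 bases with Mrpl47 on the other strand, so its reads are uncertain. Ndufb3 was fitted at 0.24 ± 0.0746 (adjusted p = 0.155), Ndufa6 at 0.20 ± 0.0643 (adjusted p = 0.161) and Ndufv1 at 0.22 ± 0.0712 (adjusted p = 0.178). Without library 3.1, a 10-month library, Ndufb5 (0.33 ± 0.084, adjusted p = 0.0281), Ndufa6 (0.21, adjusted p = 0.0443) and Ndufb3 (0.24, adjusted p = 0.0452) passed, where 2.31% of all genes did. Without libraries 3.2 and 5.2 Ndufb5 passed alone (0.37 ± 0.0931, adjusted p = 0.0494), where 0.76% of all genes did, and the ND median went from 0.20 to 0.36. Both libraries are sedentary and the highest of their group in the ND sum, and no exercised library was left out likewise. That choice by itself raises the ND differences. Among the ND genes ND3 was fitted at 0.65 ± 0.253 (adjusted p = 0.271), with 20.5, 26.8 and 53.4 CPM in sedentary and 19.6, 42.1 and 108 in exercised libraries, and the others ranged from 0.09 (ND2) through 0.12 (ND4L), 0.13 (ND1), 0.20 (ND4) and 0.26 (ND5) to 0.30 (ND6).

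Exercised quadriceps at 18 months against sedentary at 10 months had 1 called member of 45, a smaller share than the 11.1% of all genes that passed. Ndufv1 stood at 255, 334 and 379 CPM at 10 months and 298, 391 and 501 in exercised libraries, and rose by 0.21 ± 0.0691 (adjusted p = 0.0475). The groups overlapped. Ndufb5 (0.28, adjusted p = 0.0534) and Ndufa5 (0.21, adjusted p = 0.061) came next. The Ndufv1 call was lost in 19 of 31 fits that left out 1 library, and without library 3.1 its adjusted p was 0.0618, where 10.8% of all genes passed. Without libraries 3.2 and 5.2, 6 members passed as higher (12% of all genes), Ndufb5, Ndufv1, Ndufa6, Ndufa9, ND5 (0.41 ± 0.129, adjusted p = 0.0363) and ND6 (0.36 ± 0.123, adjusted p = 0.0492). Leaving out only sedentary libraries high in the ND sum by itself raises the ND differences, so the ND5 and ND6 calls rest on that choice. The ND genes were fitted from 0.09 (ND1, ND2) to 0.44 (ND3), with ND4 at 0.16, ND4L at 0.21, ND6 at 0.26 and ND5 at 0.32. In the exercise contrast of this muscle Myh1 (0.84, adjusted p = 0.00122), Mb (0.90, adjusted p = 0.000958) and Myh2 (0.83, adjusted p = 0.00969), the IIa myosin, rose, which is 1 of 10 fast and 1 of 10 slow and oxidative markers. The slow and oxidative markers summed to 2787 to 3274 CPM in sedentary and 3207 to 5882 in exercised libraries, and their part in the complex I values was not tested.

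**Figure D4:**
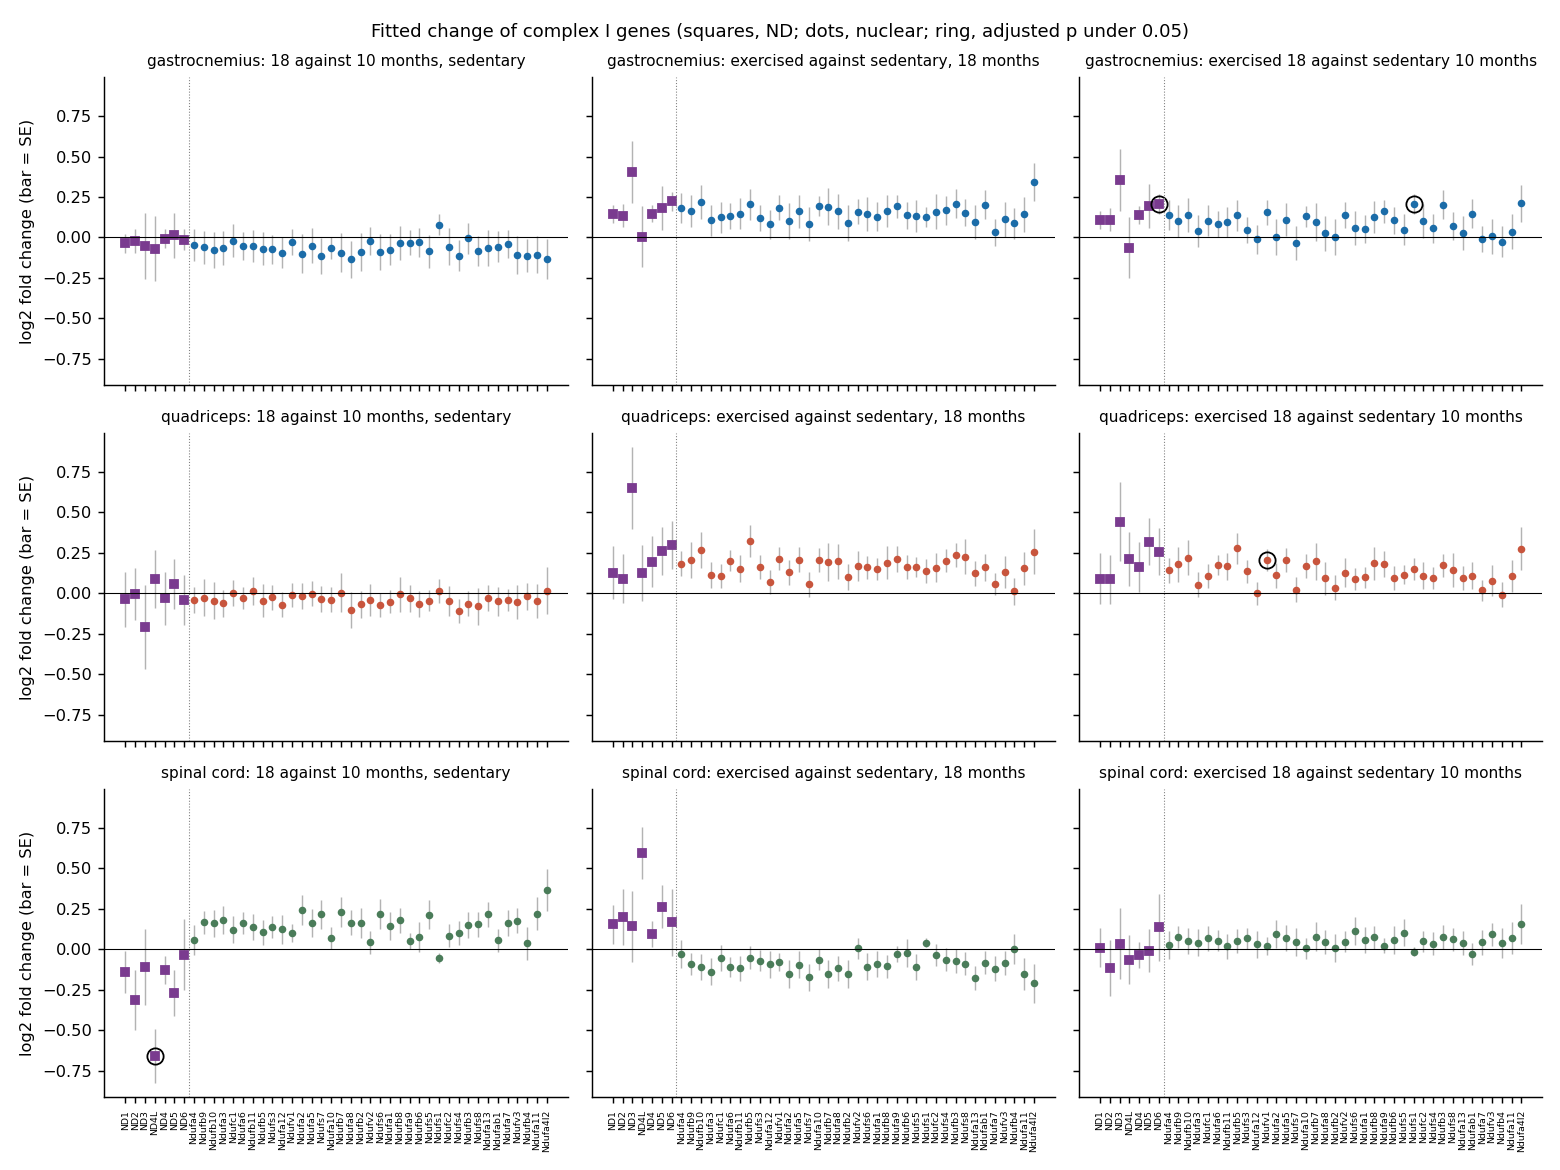
Log2 fold change of the complex I genes (bars are SE, rings mark an adjusted p under 0.05; squares are ND genes, dots nuclear genes) for ageing, for exercise and for exercised 18-month against sedentary 10-month mice in the 3 tissues. Nuclear genes have medians of -0.06, -0.04 and 0.15 for ageing and 0.15, 0.16 and -0.09 for exercise in gastrocnemius, quadriceps and cord.

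In spinal cord the genomes were fitted in opposite directions with age. Nuclear genes were fitted higher at 18 months in 37 of 38 cases (median 0.15, 15 with an unadjusted p under 0.05, against 26.3% of all genes) and ND genes lower in 7 of 7 (median -0.14), against a median of 0.01 over all genes tested. Of 45 members 1 was called, a smaller share than the 5.35% of all genes. ND4L stood at 0.941, 1.48 and 1.90 CPM at 10 months and 0.531, 0.941 and 1.39 at 18 months, and was lower at 18 months by -0.66 ± 0.168 in log2 (adjusted p = 0.0209). The groups overlapped, and the call rests on 34 to 71 against 20 to 57 reads of a gene with exact nuclear copies. Among the nuclear genes Ndufa4l2 was fitted at 0.37 ± 0.131 (adjusted p = 0.0836), Ndufa13 at 0.21 ± 0.0799 (adjusted p = 0.0931) and Ndufa2 at 0.24 ± 0.092 (adjusted p = 0.0956). The exception was the core subunit Ndufs1 at -0.05. The other ND genes were fitted at -0.32 (ND2), -0.27 (ND5), -0.14 (ND1), -0.13 (ND4), -0.11 (ND3) and -0.03 (ND6).

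These medians depended on libraries 5.2 and 6.1 of the sedentary 18-month group. Without library 5.2 the ND median was -0.04 with 2 of 7 fitted higher, while 2 ND genes passed as lower (1046 genes passed in all). Without library 6.1 the nuclear median was 0.10. Without both, the medians were 0.07 and -0.04. ND4L then had -0.57 (adjusted p = 0.0718), and ND2 passed instead at -0.16 ± 0.0454 (adjusted p = 0.0462), where 2.38% of all genes passed. Leaving out library 6.4 alone also ended the ND4L call, and 422 genes then passed in all. Leaving out the library titled SC_10.4 raised the count to 5, where 1892 genes passed in all, against 1015 with all libraries. Microglial genes moved with age in the same libraries. Of 6 microglia and macrophage markers 5 rose, among them Tyrobp (0.68, adjusted p = 8.04e-06) and C1qa (0.71, adjusted p = 0.000177), and their sum ran from 239 to 462 CPM at 10 months and from 317 to 409 at 18 months. Red cell genes summed to 11091 CPM in library 6.1 against a group median of 595.1. The part of these cells in the complex I values was not tested.

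Library 5.2 was not equally low in all ND transcripts. Set against the lowest of the other 9 libraries of its group, it held 1422 against 5563 CPM for ND1, 444 against 4162 for ND2, 1632 against 3603 for ND4, 78.7 against 1376 for ND6 and 1.06 against 26.4 for ND3. ND5, at 1486 CPM, was lowest in this library too, whereas ND4L, at 0.673, was not. Its nuclear sum of 13546 TPM was above the group median of 11908. Mitochondrial transcripts took 1.58% of its 37979700 counts, the smallest share among the 97 libraries.

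**Figure D5:**
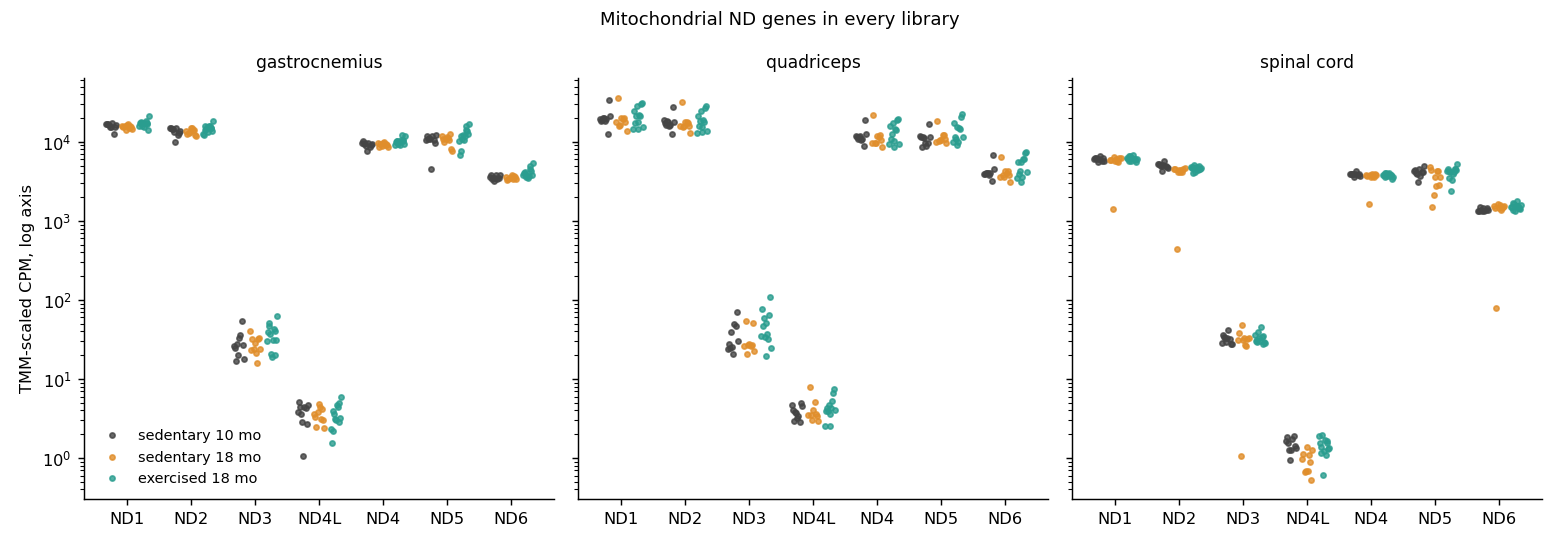
Level of each ND gene in each library, as TMM-scaled CPM on a log axis, by group. Cord library 5.2 lies apart for ND6 (78.7 CPM) and ND2 (444 CPM), and quadriceps library 5.2 is the highest sedentary 18-month quadriceps library for ND1, ND2, ND4 and ND5.

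Exercise in cord gave no called gene of any kind. By edgeR 0 of 45 members and 0% of all genes passed, with 2 nuclear and 1 ND gene at an unadjusted p under 0.05 (13.5% of all genes), and DESeq2 called 0. The nuclear genes were fitted lower in 35 of 38 cases (median -0.09) and the ND genes higher in 7 of 7 (median 0.17). Ndufa13 was at -0.18 (adjusted p = 0.368), Ndufs7 at -0.17 (adjusted p = 0.368) and Ndufa2 at -0.15 (adjusted p = 0.394). ND4L was at 0.60 (adjusted p = 0.368), ND5 at 0.26, ND2 at 0.20, ND6 at 0.17, ND1 at 0.15, ND3 at 0.14 and ND4 at 0.09. The sedentary 18-month group enters this contrast and the one for ageing with opposite signs. Without libraries 5.2 and 6.1 the medians were -0.0039 and 0.05, with 16 of 38 nuclear genes fitted higher. Exercised mice of 18 months against sedentary mice of 10 months had 0 called members by edgeR (1.51% of all genes), 0 at an unadjusted p under 0.05 (13.6%), 0 by DESeq2, and medians of 0.05 and -0.01. The smallest p-values there were those of Ndufs6 (0.11, adjusted p = 0.646), Ndufv3 (0.09) and Ndufs5 (0.10). ND1 was fitted at 0.01, ND2 at -0.12, ND3 at 0.03, ND4L at -0.06, ND4 at -0.03, ND5 at -0.01 and ND6 at 0.13, and without libraries 5.2 and 6.1 ND6 passed at 0.14 ± 0.0386 (adjusted p = 0.0351, 3.61% of all genes).

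Whether an effect differed between tissues was tested directly. Between gastrocnemius and quadriceps 0 members and 0% of all genes differed in the effect of age or of exercise by edgeR, with 0 members at an unadjusted p under 0.05 in each (1.5% and 2.31% of all genes) and 0 by DESeq2. Between cord and the mean of the muscles 0 members differed in the effect of age (2.61% of all genes), with 9 nuclear and 1 ND gene at an unadjusted p under 0.05 (20.4% of all genes) and 0 by DESeq2. For exercise 0 members passed (0.887% of all genes) although 38 of 38 nuclear genes were fitted lower in cord than in muscle (median -0.25 against -0.02 over all genes, 28 at an unadjusted p under 0.05 where 16% of all genes were), while 4 of 7 ND genes were fitted higher (median 0.03). Ndufv1 had -0.27 ± 0.0825 (adjusted p = 0.0822), Ndufa4l2 -0.50 ± 0.153 (adjusted p = 0.0836) and Ndufa6 -0.27 ± 0.0858 (adjusted p = 0.1). DESeq2 called Ndufv1 and Ndufa4l2 (3.03% of all genes). Without the 5 libraries that stand apart the medians were -0.15 and -0.11, so that the ND genes were then fitted lower too.

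The genes that build complex I and express its mitochondrial part were read from further lists. Of 16 complex I assembly factors tested, 0 were called in any of the 9 comparisons within a tissue. Between the muscles 4 were lower in gastrocnemius, Timmdc1 (-0.24), Ndufaf3 (-0.35), Ndufaf4 (-0.20) and Ndufaf5 (-0.27), with a list median of -0.10. In cord 13 were lower than in muscle, among them Tmem70 (-1.94), Ecsit (-2.24) and Ndufaf6 (-2.32), and Ndufaf2 was higher (0.92), with a median of -1.24 that is nearer 0 than those of the subunits. These counts depend on the scale: by the ratio of mean TPM in cord to that in the muscles, 8 of the 16 were lower and 8 higher, with a median ratio of 1.24 (Ndufaf6 0.574, Ecsit 0.611, Tmem70 0.743, Ndufaf2 5.43). Of 25 genes of mitochondrial transcription and RNA handling, Fastkd1 was lower in exercised 18-month than in sedentary 10-month mice in gastrocnemius (-0.20, adjusted p = 0.0202) and in quadriceps (-0.20, adjusted p = 0.0181), and lower with age in quadriceps (-0.27, adjusted p = 0.0396) and cord (-0.17, adjusted p = 0.026). Polrmt, the mitochondrial RNA polymerase, was lower (-0.27, adjusted p = 0.00684) and Mterf2 higher (0.31, adjusted p = 0.0425) in exercised 18-month than in sedentary 10-month gastrocnemius, and Top1mt was lower in the same contrast of quadriceps (-0.25, adjusted p = 0.00823). In cord Fastkd5 was lower in that contrast (-0.25, adjusted p = 0.0378). Gastrocnemius was below quadriceps in Tefm (-0.20), Mterf4 (-0.22), Tfam (-0.15) and Polg (-0.27), and cord was below the muscles in 23 of the 25, with Tefm at -2.66, Fastk at -2.51 and Tfb2m at -2.36, and above them in Mterf1a (0.80) and Mterf1b (1.24). By TPM ratio the direction turned for most of this list, with 4 of the 25 lower and 21 higher in cord and a median ratio of 1.48, while Tefm (0.453), Fastk (0.504) and Tfb2m (0.553) were lower on both scales.

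The 6 other mitochondrial mRNAs passed in few contrasts within a tissue. COX1 rose in exercised 18-month against sedentary 10-month gastrocnemius (0.27 ± 0.083, adjusted p = 0.0452), and 0 of the 6 passed in the other 8. CYTB (-0.37, adjusted p = 0.0181) and COX1 (-0.39, adjusted p = 0.0486) were lower in gastrocnemius than in quadriceps, where the list median of -0.31 lay between those of the nuclear and the ND subunits. All 6 were lower in cord than in the muscles, with a median of -2.33, and by TPM ratio all 6 were lower too (median 0.570).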

How the data were processed

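Gene counts, gene lengths and TPM values deposited by the authors were used for 97 of 99 labelled libraries. Sedentary quadriceps library 10.4 and exercised quadriceps library 10.2 were not analysed here, so that fits planned for 33 quadriceps libraries used 31. The submitters' processing notes name STAR 2.5.2b and GRCm38.p5; how reads were assigned to genes, and with which strand setting, is not given in the sources used here. TPM as deposited by the authors could be recomputed from the deposited counts and lengths to within 5e-04. Libraries were prepared from polyA RNA extracted with Trizol, with the TruSeq RNA v2 kit, per the labels.

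Counts were tested with edgeR 4.0.16 (quasi-likelihood F test, TMM, filterByExpr with a minimum count of 10 and a minimum total of 15) in R 4.3.3 with limma 3.58.1, one fit per tissue over its 3 groups, with further fits over both muscles and over all libraries for differences between tissues. P-values were Benjamini-Hochberg adjusted over all genes tested and called under 0.05. All 45 members passed the filter. DESeq2 1.42.0, RLE factors, scaling without mitochondrial genes, library totals, no filter, fits on both groups alone, a block for the number in the title, leaving out each library in turn and leaving out gastrocnemius 2.2 and 3.1, quadriceps 3.1 and cord 5.2 and 6.1 were the alternatives. The ratio was also taken from ND1, ND2, ND5 and ND6 alone, and quadriceps libraries 3.2 and 5.2 were left out, both alternatives chosen after seeing the data. Libraries 3.2 and 5.2 are both sedentary, and no exercised library high in the ND sum was left out in the same way. The libraries that stand apart are all sedentary as well, and no exercised library was left out with them. The script was tested on simulated data. The first part of a title number is 1, 2 or 3 in every 10-month library and 4 or more in every 18-month library, so a batch behind the numbers cannot be told apart from age.

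Members and lists were chosen with earlier results of these data known. Named in each comparison of groups were the 7 ND genes (for ageing in the muscles by their range only) and up to 6 called nuclear genes per direction, or the 3 with the smallest p where fewer than 3 were called. Core subunits, Ndufa4, Ndufa4l2 and the most and least abundant member were named for their level in each tissue. Other lists are given by their counts and at most 3 called genes by smallest p, with a few more where these were all called genes. Genes named for their cord-to-muscle TPM ratio, for a promoter match or as passing only without libraries were chosen after their values were seen. Promoter sequences are from RefSeq, positions from the GRCm38 annotation. The values of 1 nuclear member, which stays in all counts, sums and medians, are not reported here.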

Additional observations from a re-analysis of the deposited data

Results flagged for a closer look

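In each sedentary group, 13 values were searched for a library far from the others (the ratio, both TPM sums, the 7 ND genes and 3 core subunits, the ratio of a gap to the range being above Dixon's 95% value). Of 78 such searches 35 found one, where chance finds about 1 in 20; the values are not independent, since the ND genes of a library move together and enter the sums and the ratio. The exercised groups, of 12 or 13 libraries, were not searched.

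Cord library 5.2 (18 months) was lowest in the ratio (0.873, next 3.23), the ND sum (11820 TPM, next 44122), ND1 (1422 CPM), ND2 (444), ND3 (1.06), ND4 (1632) and ND6 (78.7). Cord library 2.1 (10 months) had the lowest ND sum of its group, 47420 TPM. Quadriceps library 5.2 (18 months) was highest in the ratio (12.27, next 8.75), the ND sum (181687 TPM), ND1 (36330 CPM), ND2 (32250), ND4 (21849), ND5 (18577) and ND6 (6407) and lowest in Ndufs1 (279, next 319). Quadriceps library 3.2 (10 months) was highest in the ratio (11.07, next 8.26), the ND sum (170850 TPM), ND2 (27721 CPM), ND4 (19029), ND5 (17050.2) and ND6 (6854). Quadriceps library 3.1 was lowest in Ndufs1 (219 CPM, next 313) and Ndufv1 (255).

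Gastrocnemius library 2.2 (10 months) combined the lowest ratio (3.33, next 6.90), the lowest ND sum (73585 TPM), the lowest ND2 (9875 CPM), ND5 (4525) and ND4L (1.07, next 2.67) with the highest nuclear sum (22118.5 TPM, next 16321), Ndufv1 (493.2 CPM, next 334) and Ndufs7 (416, next 215). Gastrocnemius library 3.1 was lowest in ND1 (12515 CPM) and Ndufs1 (214, next 312), and library 8.2 (18 months) in Ndufv1 (280.3, next 311).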

How the results depend on the processing

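Of the 8 genes past their test that were refitted under the alternatives, none changed sign. Untested values near 0 did: the nuclear median for ageing in gastrocnemius went from -0.06 to 0.05 without library 2.2 and to 0.01 without libraries 2.2 and 3.1, the ND median of the exercise effect in cord against muscle from 0.03 to -0.11 without the libraries that stand apart and to -0.05 without quadriceps 3.2 and 5.2, and ratio differences as in the ranges below. The count of called members moved by over 1.5 times as follows. Exercise in gastrocnemius (0 called) gave 2 with library totals, 1 with DESeq2, 1 with only both groups fitted and 8 without the libraries that stand apart; exercised 18-month against 10-month gastrocnemius (2) gave 0 with no filter, 0 with only both groups and 10 without those libraries. Exercise in quadriceps (0) gave 3 without library 3.1 and 1 without libraries 3.2 and 5.2. Exercised 18-month against 10-month quadriceps (1) gave 2 with RLE factors, 3 with nuclear scaling, 2 with library totals, 0 with no filter, 4 with DESeq2, 0 with only both groups, 0 without library 3.1 and 6 without libraries 3.2 and 5.2. In cord the same contrast (0) gave 1 with only both groups and 1 without libraries 5.2 and 6.1. Gastrocnemius against quadriceps (4) gave 38 without those libraries. The difference in the exercise effect between cord and muscle (0) gave 2 with DESeq2. The causes were not tested.

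Title numbers share only a number: same-numbered gastrocnemius and quadriceps libraries had a median correlation of deviations of 0.27 (28 of 31 above 0.1, lowest -0.15), and 23 of 31 matched best with their own number, a hint from the data only. With the replicate block gastrocnemius against quadriceps gave 23 called members (19 nuclear, 4 ND; 24.0% of all genes) and the exercise effect between cord and muscle 5 (4.39%). The other fits with the block called the same number of members.

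Leaving out each library in turn, the counts ran from 0 to 0 for ageing in gastrocnemius and in quadriceps and for exercise in cord, from 0 to 2 (gastrocnemius) and 0 to 3 (quadriceps) for exercise, from 0 to 21, 0 to 5 and 0 to 1 for exercised 18-month against 10-month gastrocnemius, quadriceps and cord, and from 0 to 5 for ageing in cord. The fits with the counts 2, 3, 21, 5, 1 and 5 called 336, 341, 1455, 1630, 517 and 1892 genes in all. With all libraries these comparisons called 16, 112, 1011, 1647, 286 and 1015 genes. The log2 ratio differences ran from -0.11 to 0.05, -0.02 to 0.06 and -0.10 to 0.07 in gastrocnemius (ageing, exercise, exercised against 10 months), from -0.08 to 0.05, -0.05 to 0.08 and -0.05 to 0.05 in quadriceps, and from -0.47 to -0.16, 0.11 to 0.41 and -0.09 to -0.01 in cord. Ndufs1 ran from 0.16 to 0.23, ND6 from 0.17 to 0.22, Ndufv1 from 0.17 to 0.24 and ND4L from -0.74 to -0.59.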
